A study of Mus musculus with 2 samples.

Results

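The lysyl oxidase family of the mouse has 5 genes, Lox, Loxl1, Loxl2, Loxl3 and Loxl4, and their transcripts were followed through the cell types of the fibrotic liver. The genes were picked by symbol alone, and all 5 were present among the 32285 genes counted. Non-parenchymal liver cells, a preparation meant to leave hepatocytes out, were taken from wild-type (Mfap2+/+) and knockout (Mfap2-/-) mice and profiled by droplet single-cell RNA sequencing. Animals of both genotypes had received CCl4, a hepatotoxin that scars the liver, by the intraperitoneal route over 8 weeks, so every value below comes from injured tissue. Each genotype is represented by 1 library, and the strain, the age, the way in which Mfap2 was disrupted and the number of animals pooled are not given in the sources used here. Mfap2 encodes a glycoprotein of the extracellular microfibrils.

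Lysyl oxidases are secreted, copper-dependent amine oxidases. They oxidise lysine residues of collagens and elastin to reactive aldehydes, from which the covalent crosslinks that stiffen and stabilise matrix fibres then form. Lox and Loxl1 are made as pro-enzymes and are cut by procollagen C-proteinases such as Bmp1, whereas Loxl2, Loxl3 and Loxl4 carry scavenger receptor cysteine-rich domains ahead of the catalytic domain. In the liver, hepatic stellate cells and portal fibroblasts are known as major sources of these enzymes during fibrosis.

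On mouse build GRCm38, with the GENCODE M21 annotation, Loxl1 (ENSMUSG00000032334) lies on the reverse strand of chromosome 9 from 58287738 to 58313186. Loxl2 (ENSMUSG00000034205) is a forward-strand gene of chromosome 14, at 69609068 to 69695834. Loxl3 (ENSMUSG00000000693) is a forward-strand gene of chromosome 6, at 83034173 to 83052562. Loxl4 (ENSMUSG00000025185) lies on the reverse strand of chromosome 19 from 42593982 to 42612813. All 5 are protein-coding genes. Loxl1 and Loxl4 overlap no other annotated gene. Loxl2 overlaps Gm27177 and Gm37513 on the opposite strand, and Loxl3 overlaps Htra2 on the opposite strand. Loxl2 and Loxl3 also contain the microRNA genes Mir6950 and Mir7040 on their own strand.

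The members share the catalytic core that holds the copper ion, and its coding sequence shows how alike the genes are in that part. The 33 bases below encode the copper-binding stretch, read 5′ to 3′ on the coding strand from the GENCODE M21 transcripts, with the 4 histidine codons in capitals.
Loxl1: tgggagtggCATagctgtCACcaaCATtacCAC
Loxl2: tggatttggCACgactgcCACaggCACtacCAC
Loxl3: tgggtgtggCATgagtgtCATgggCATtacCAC
Loxl4: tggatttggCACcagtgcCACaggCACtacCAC
All 4 stretches cross a splice junction of coding exons: exons 3 and 4 of 7 in Loxl1, exons 10 and 11 of 14 in Loxl2 and in Loxl3, and exons 11 and 12 of 15 in Loxl4. The genomic spans, introns included, are chr9:58293720-58294381, chr14:69682316-69689037, chr6:83049995-83050125 and chr19:42598807-42599899 in that order. Loxl2 and Loxl4 share 31 of the 33 bases, and the lowest agreement among these 4 stretches is between Loxl1 and Loxl4, with 21. The stretch of Lox was not compared. Across whole transcripts, 9 of the 10 pairs of members had no run of 31 bases in common. Lox and Loxl1 had 2 different runs of 31 bases in common, which may overlap each other.

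The wild-type library held 11783 barcodes and the knockout library 12872, with medians of 4685 and 6511 UMIs (unique molecular identifiers, tags that mark single RNA molecules) per barcode. After removal of low-quality barcodes and likely doublets, 10360 and 11452 cells were kept. Cells were clustered without the 5 genes and named from fixed markers, and a name such as mesenchymal-like says only that such markers define the cluster. Hepatocyte-like cells made up 0.483% and 0.637% of the kept cells. The libraries share 40 barcodes, 32 of them among kept cells. Mfap2 itself had 215 UMIs over the kept wild-type cells and 3 over the kept knockout cells, and in mesenchymal-like cells 170 and 1. Levels below are UMIs per 1000000 UMIs of a cell class (CPM), and all intervals are 95% counting intervals, which do not cover differences between animals or library preparations. Those of levels and ratios treat each UMI as independent and do not cover the spread between cells. In mesenchymal-like cells, 5 cells held 25.9% of the wild-type and 25% of the knockout Lox UMIs. With 1 library per genotype there is no replicate, no test between genotypes can be made, and genotype cannot be told apart from animal or preparation.

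Transcripts of the family were found above all in mesenchymal-like cells, which were 211 wild-type and 214 knockout cells, 2.04% and 1.87% of the kept cells. This small class held 77.7% of all wild-type Lox UMIs and 76.1% of the knockout ones, and 73.4% and 73.0% of the Loxl1 UMIs. It held 52.4% and 41.0% of the Loxl2 UMIs, but 18% and 15.1% of the Loxl3 UMIs. The family thus divided into Lox and Loxl1, with most of their UMIs in mesenchymal-like cells, and Loxl2 and Loxl3, which were also well represented in endothelial-like cells. For Loxl3 the largest share lay in macrophage-like cells, which held 32.2% and 29.8% of its UMIs. Those cells also held 31.3% and 27.7% of all kept UMIs, so the Loxl3 share was close to that of the class as a whole. Loxl4 had few UMIs in any class, 36 and 79 over all kept cells.

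**Figure D1:**
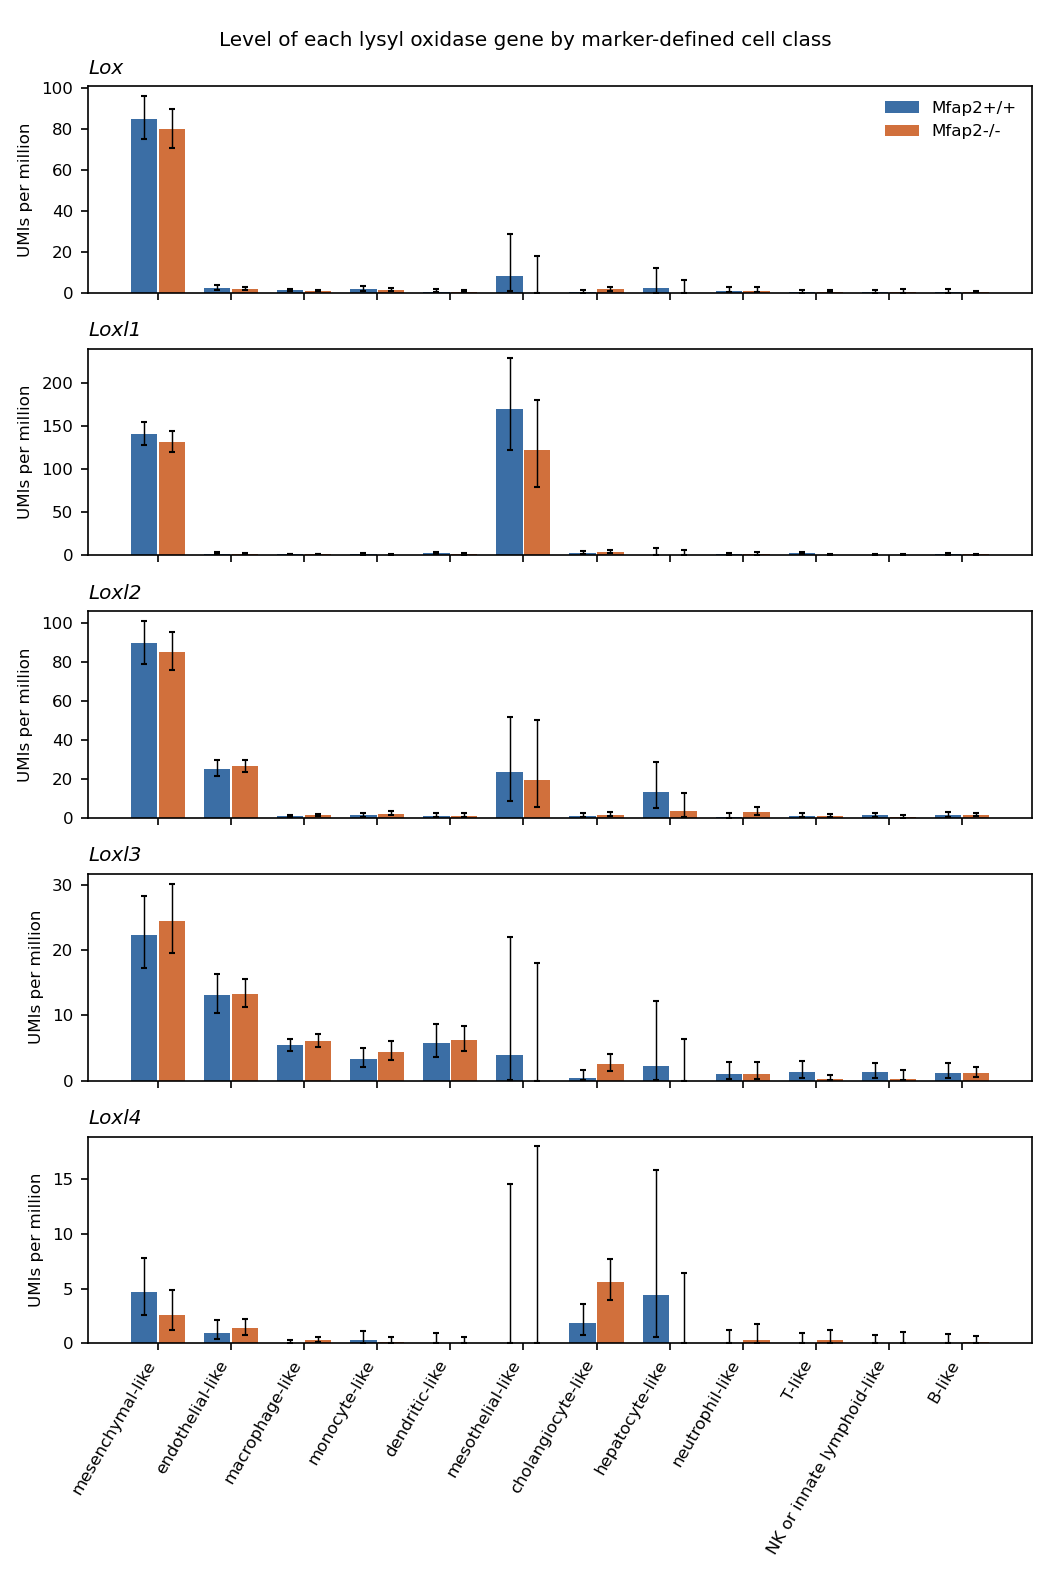
CPM in each cell class for the 5 genes, 1 panel per gene, with blue bars for the wild-type and orange bars for the knockout library and 95% Poisson intervals as error bars. Mesenchymal-like cells have the tallest bars for Lox and Loxl2, mesothelial-like wild-type cells reach 170 CPM for Loxl1, and endothelial-like bars stand out for Loxl2 and Loxl3 only.

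Lox (ENSMUSG00000024529), on the reverse strand of chromosome 18 from 52516067 to 52529867 with AC161119.1 overlapping it on the opposite strand, crosslinks collagen and elastin. It stood at 85.0 CPM (74.9 to 96.1, 255 UMIs) in wild-type and at 79.7 CPM (70.7 to 89.7, 280 UMIs) in knockout mesenchymal-like cells. Loxl1, the member best known for elastic fibre upkeep, was the highest of the family there, with 141 CPM (128 to 155, 422 UMIs) and 132 CPM (120 to 145, 464 UMIs). Loxl2, an enzyme that acts on collagen IV and fibrillar collagens, stood close to Lox at 89.4 CPM (79.0 to 101, 268 UMIs) and 84.9 CPM (75.5 to 95.1, 298 UMIs). These are counts of molecules, not divided by length. How intronic reads were counted is not given in the sources used here, and the gene spans differ, from 13801 bases for Lox to 86767 for Loxl2, so an order between genes is a description of these counts. Loxl3, a member needed for skeletal and palate development, stood at 22.3 CPM (67 UMIs) and 24.5 CPM (86 UMIs). Loxl4 was barely detected, at 4.67 CPM (14 UMIs) and 2.56 CPM (9 UMIs). The order from Loxl1 through Loxl2 and Lox to Loxl3 and Loxl4 was the same in both libraries. The intervals of Lox and Loxl2 overlap, so the order of those neighbours cannot be read.

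In most of these cells at least 1 member was seen. A UMI of 1 or more of the 5 genes was present in 178 of 211 wild-type cells (84.4%) and in 182 of 214 knockout cells (85.0%), and 2 or more members were present together in 57.3% and 62.6%. Lox and Loxl1 were detected together in 59 wild-type and 67 knockout cells. By gene, 40.8% and 43.9% of the cells had a Lox UMI, 52.1% and 58.4% a Loxl1 UMI, 53.6% and 57.5% a Loxl2 UMI, and 22.3% and 31.3% a Loxl3 UMI. The cells were deep, with medians of 12825 and 15177.5 UMIs. B-like cells, which serve as the measure of free RNA, had medians of 3386 and 4766.5 UMIs, and 0.162% to 0.721% of them had a UMI of Lox, Loxl1, Loxl2 or Loxl3. After each cell was thinned to 1000 UMIs the mesenchymal-like shares were 7.11% and 5.63% for Lox, 6.64% and 8.92% for Loxl1, 5.21% and 7.98% for Loxl2, and 1.42% and 3.76% for Loxl3. In the thinned B-like cells no member passed 0.227%. The intervals of the thinned wild-type and knockout shares overlapped for every member.

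**Figure D2:**
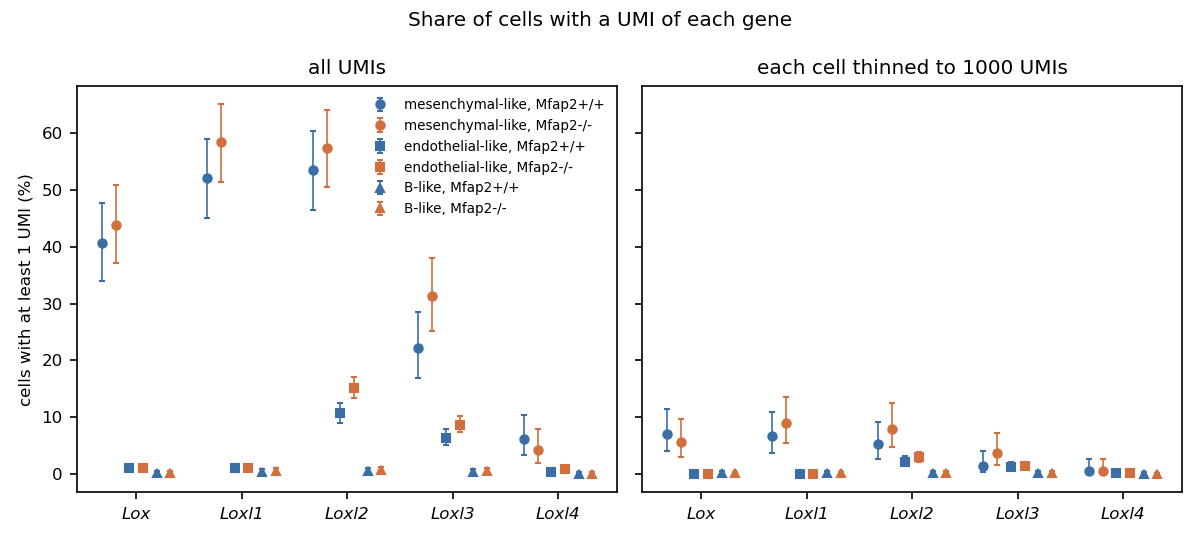
Percentage of cells with at least 1 UMI of each gene, with Clopper-Pearson intervals, for mesenchymal-like (circles), endothelial-like (squares) and B-like cells (triangles), blue for wild type and orange for knockout; left with all UMIs, right after thinning to 1000 UMIs per cell. The mesenchymal-like shares of Lox, Loxl1 and Loxl2 lie between 40.8% and 58.4% on the left and between 5.21% and 8.92% on the right, above the B-like shares in both panels.

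Set against each other, the wild-type and knockout libraries differed little in the family's levels in mesenchymal-like cells. The log2 ratio of knockout over wild type was -0.09 for Lox (-0.34 to 0.16), -0.09 for Loxl1 (-0.28 to 0.10) and -0.08 for Loxl2 (-0.32 to 0.17). It was 0.13 for Loxl3 (-0.35 to 0.62). The intervals of these 4 genes leave out a 2-fold difference in either direction as far as counting goes. For Loxl4 the ratio was -0.81 with an interval from -2.25 to 0.45, which leaves out a 2-fold higher level in the knockout but not a 2-fold lower one. None of the 5 members was 2-fold apart, and 7.16% of the 12444 genes with at least 20 UMIs in this class were. None had an interval that excluded 0, against 40.0% of those genes. The median of the family was -0.09 and that of all 12444 genes 0.13. The signs of the Lox, Loxl1, Loxl2 and Loxl3 ratios depended on the processing. With doublets left in, Loxl1 stood at 0.32, and with cells picked by a marker gate in place of clusters, Lox stood at 0.20 and Loxl1 at 0.15. The Loxl4 ratio stayed below 0, between -0.99 and -0.63, under the 9 alternatives that left it enough UMIs. Scaling by the median of gene ratios in place of total UMIs lowered every mesenchymal-like ratio by 0.14.

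The marker genes of the class also differed between the libraries. The summed level of the 12 mesenchymal markers was 19093 CPM in wild-type and 12098 CPM in knockout mesenchymal-like cells, with all 12 detected in both. The 12 macrophage markers summed to 1058 and 1136 CPM and the 7 hepatocyte markers to 88.7 and 209 CPM in the same cells, and the 6 haemoglobin and other erythroid markers to 476 and 134 CPM. The part of these shifts in the ratios of the family was not tested.

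Over all kept cells the values differed from those within the class. Lox stood at 4.62 CPM in the wild-type library and 3.68 CPM in the knockout library, a log2 ratio of -0.33 (-0.55 to -0.11). Loxl1 stood at 8.10 and 6.36 CPM, a log2 ratio of -0.35 (-0.51 to -0.18). Loxl4 was higher in the knockout, at 0.507 and 0.791 CPM, with a ratio of 0.62 (0.05 to 1.25). Loxl2 and Loxl3 had intervals that included 0. Thus 3 of 5 members had an interval that excluded 0 over all cells, against 64.4% of 19304 genes, and none was 2-fold apart, against 7.56%. Mesenchymal-like cells supplied 4.22% of the kept wild-type UMIs and 3.51% of the kept knockout UMIs, and in such sums fewer cells of a class and fewer transcripts per cell cannot be told apart.

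Clustering within the mesenchymal-like class gave 3 sub-groups, which were named from fixed markers. They were stellate-like cells (180 wild-type, 161 knockout), portal fibroblast-like cells (12 and 31) and smooth muscle-like cells (19 and 22). Hepatic stellate cells store vitamin A and turn into collagen-producing myofibroblasts in injury, portal fibroblasts surround the bile ducts, and vascular smooth muscle cells ring the larger vessels. Loxl1 was highest in the portal fibroblast-like cells, with 343 CPM (92 UMIs) in the wild-type and 258 CPM (178 UMIs) in the knockout library. In the stellate-like cells it stood at 120 and 103 CPM, and in the smooth muscle-like cells at 135 and 88.8 CPM. The Loxl1 intervals of the portal fibroblast-like cells lay above those of the other sub-groups in both libraries. Its share of positive cells was also highest there, 83.3% and 87.1%, although 1 cell held 47 of the 92 wild-type UMIs. The portal fibroblast-like name rests on 3 of 7 markers, none of them among the leading genes of the sub-group. These 7 markers summed to 663 and 881 CPM there and to 682 and 536 CPM in smooth muscle-like cells. In stellate-like cells they summed to 221 and 272 CPM. In the portal fibroblast-like cells the 9 stellate markers summed higher, to 1494 and 3278 CPM, with all 9 detected in both libraries. The 12 mesenchymal markers summed to 12442 and 9231 CPM. Their part in the differences between the libraries was not tested.

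**Figure D3:**
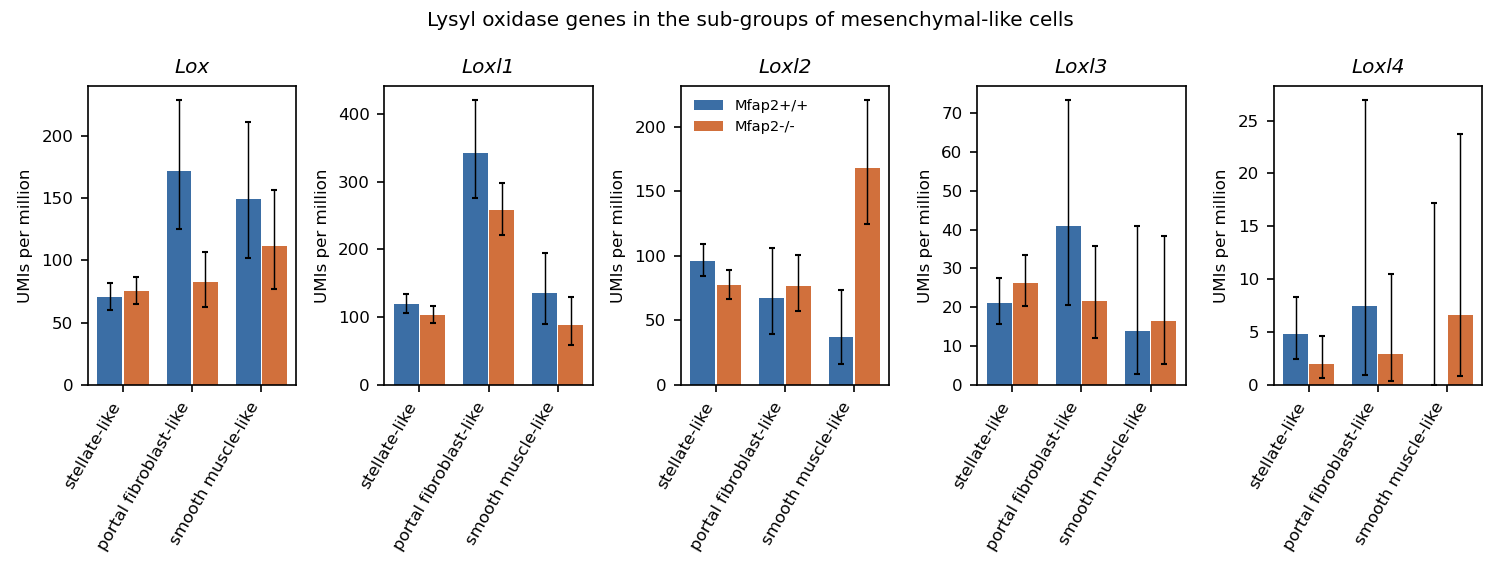
CPM of the 5 genes in the stellate-like, portal fibroblast-like and smooth muscle-like sub-groups, blue for wild type and orange for knockout, with 95% Poisson intervals. Loxl1 is highest in the portal fibroblast-like cells of both libraries (343 and 258 CPM), and Loxl2 in the smooth muscle-like cells stands at 37.3 CPM in wild type and 168 CPM in knockout.

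Lox was spread more evenly. It stood at 70.3 CPM (177 UMIs) in wild-type and 75.1 CPM (189 UMIs) in knockout stellate-like cells, and at 149 CPM (32 UMIs) and 112 CPM (34 UMIs) in smooth muscle-like cells. In portal fibroblast-like cells it stood at 171 CPM (46 UMIs) and 82.6 CPM (57 UMIs), a log2 ratio of -1.06 (-1.64 to -0.46). That difference rests on few cells: 26 of the 46 wild-type UMIs came from 1 cell and 95.7% from 5 cells. Without the richest cell of each library the ratio was -0.79, and without the 5 richest it turned to 0.75, with 2 wild-type UMIs left. Loxl1 in the same cells had a log2 ratio of -0.42 (-0.78 to -0.03), with 47 of 92 wild-type UMIs in 1 cell, and stood at -0.16 without the richest cell and 0.46 without the 5 richest. In portal fibroblast-like cells 25.3% of 6726 genes had an interval that excluded 0, and Lox and Loxl1 were 2 of the 4 members with enough UMIs.

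Loxl2 had counting intervals on opposite sides of 0 in the stellate-like and smooth muscle-like cells. Lox and Loxl3 also differed in sign between sub-groups, without such a pair of intervals. In stellate-like cells it stood at 96.2 CPM (242 UMIs) in wild type and 77.1 CPM (194 UMIs) in knockout, a log2 ratio of -0.32 (-0.60 to -0.04). After each cell was thinned to 1000 UMIs that ratio turned to 0.54, on 9 and 12 UMIs. In smooth muscle-like cells it stood at 37.3 CPM (8 UMIs) and 168 CPM (51 UMIs), a log2 ratio of 2.02 (1.08 to 3.45). The share of smooth muscle-like cells with a Loxl2 UMI was 26.3% and 72.7%, and median depths were 8982 and 15931.5 UMIs. No single cell carried the knockout value, since the richest held 12 of 51 UMIs, and without the richest cell of each library the ratio was 2.21. The makeup of the smooth muscle-like cells also differed between the libraries. Their 7 smooth muscle markers summed to 8062 CPM in wild type, with all 7 detected, and to 3896 CPM in knockout, with Rergl at 0. The 9 stellate markers summed to 1214 CPM in wild type, with Colec10 at 0, and 1867 CPM in knockout, with all detected, and the 12 mesenchymal markers to 6340 and 9406 CPM. In the same cells all 11 substrates with enough UMIs had a ratio above 0, as did 2521 of all 4676 genes. The substrate median was 1.37, against 0.06 over all genes. Of the 11 substrates, 6 were at least 2-fold higher in the knockout, against 11.1% of all genes. The part of these shifts in the Loxl2 ratio was not tested. In smooth muscle-like cells 1 of 3 members with enough UMIs, Loxl2, was more than 2-fold apart, against 18.3% of 4676 genes. It also had the one interval that excluded 0, as 25.4% of those genes did. Loxl2 reached the minimum UMI number through its knockout count, with 8 and 51 UMIs, so these shares of members are a description only. With a minimum of 1 UMI, 2 of 5 members were at least 2-fold higher in the knockout, against 14.6% of 14500 genes. None was 2-fold lower, against 17.5%. In stellate-like cells Loxl2 was 1 of 4 members with an interval that excluded 0, against 40.3% of 11717 genes, and none of the 4 was 2-fold apart, against 7.81%. Lox, Loxl1 and Loxl3 in stellate-like cells had ratios of 0.09, -0.22 and 0.31 with intervals that included 0.

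The 1191 wild-type and 1608 knockout endothelial-like cells had a family profile of their own. Loxl2 stood at 25.1 CPM (21.4 to 29.4, 157 UMIs) and 26.3 CPM (23.4 to 29.4, 305 UMIs), and Loxl3 at 13.1 CPM (82 UMIs) and 13.4 CPM (155 UMIs). Loxl2 alone made up 58.1% and 59.3% of the family's UMIs in this class, and Loxl3 30.4% and 30.2%. Lox stood at 2.08 and 1.73 CPM and Loxl1 at 1.92 and 1.55 CPM, with intervals that overlap those of B-like cells in both libraries for Loxl1 and in the wild-type library for Lox. The log2 ratios were 0.06 for Loxl2 (-0.22 to 0.35) and 0.02 for Loxl3 (-0.37 to 0.43). None of the 5 members was 2-fold apart, against 6.04% of 13759 genes, and no interval excluded 0, against 46.3%. In the same cells 7 of the 8 dissociation stress genes had a ratio above 0, as did 6498 of 13759 genes. The median of the 8 was 0.57, against -0.03 over all genes. Elsewhere the median of the 8 was 0.62 in macrophage-like, 0.65 in mesothelial-like, 0.55 in cycling-like and 0.50 in monocyte-like cells. It was 0.35 in dendritic-like, 0.08 in mesenchymal-like and -0.17 in cholangiocyte-like cells. The medians over all genes of those classes lay between 0.07 and 0.13. The part of these shifts in the family's ratios was not tested in any class.

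Most Loxl2 UMIs of the endothelial-like cells, 116 of 157 and 236 of 305, lay in cluster 4, named sinusoidal-like. Sinusoidal endothelial cells are the fenestrated lining of the liver's capillaries. Among endothelial-like cells the name rests on 3 raised markers, none of them among the leading genes there. Against all kept cells, Stab2 and Lyve1 were among the leading genes of cluster 4. In cluster 4 Loxl2 stood at 35.4 CPM (29.3 to 42.5) in wild type and 29.8 CPM (26.1 to 33.8) in knockout. In cluster 16, a vascular cluster led by genes such as Rspo3, Wnt9b and Selp, it stood at 13 and 11.9 CPM, below the sinusoidal intervals in both libraries. Loxl3 differed less, with 15.3 and 13.2 CPM in cluster 4 and 10.1 and 14.6 CPM in cluster 16. A low-depth endothelial cluster, number 8, had 22.1 and 35.7 CPM of Loxl2 on 12 and 35 UMIs.

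Lox had a small endothelial site of its own. In cluster 32, 40 wild-type and 46 knockout cells led by Gja5 and Sema3g, genes known from arterial endothelium, Lox stood at 20.3 CPM (8.14 to 41.7, 7 UMIs) and 18.4 CPM (8.41 to 34.9, 9 UMIs). In the sinusoidal cluster 4 it stood at 0.610 CPM (2 UMIs) and 0.504 CPM (4 UMIs). The intervals of the clusters did not overlap in either library. Loxl1, which accompanied Lox in mesenchymal-like cells, had no UMI in cluster 32 in either library, which allows up to 8.68 and 6.13 CPM. This cluster was singled out after its values were seen.

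Among immune cells Loxl3 was the family member that stood out. Macrophage-like cells had 5.40 CPM (4.48 to 6.46, 120 UMIs) in wild type and 6.12 CPM (5.23 to 7.11, 169 UMIs) in knockout, a log2 ratio of 0.18 (-0.17 to 0.53). B-like cells had 1.13 and 1.11 CPM, with upper bounds of 2.63 and 2.04. Dendritic-like cells had 5.75 and 6.27 CPM and monocyte-like cells 3.30 and 4.45 CPM, so the intervals of macrophage-like and dendritic-like cells overlap and their order cannot be read. The other members in macrophage-like cells had between 0.0450 and 1.44 CPM. Of the 4 members with enough UMIs in macrophage-like cells, none was 2-fold apart, against 7.35% of 14987 genes, and no interval excluded 0, against 54.1%.

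The macrophage-like class was not made of the same clusters in the libraries. Cluster 3 held 144 wild-type and 1461 knockout cells, and cluster 5 held 1262 and 115. Within cluster 3 Loxl3 stood at 8.86 CPM (13 UMIs) and 6.03 CPM (111 UMIs), and within cluster 5 at 4.86 CPM (64 UMIs) and 4.60 CPM (5 UMIs). In cluster 10, led by the Kupffer cell genes Marco, Cd163 and Clec4f, it stood at 6.0 CPM (29 UMIs) and 9.10 CPM (37 UMIs). No cluster had an interval of its Loxl3 ratio that excluded 0. With the clusters weighted to the wild-type mix, an alternative added after the data were seen, Loxl3 stood at 0.05 in place of 0.18. Loxl1 stood at -1.29 in place of -0.15, and the knockout cells of cluster 5 had no Loxl1 UMI.

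A small dendritic-like cluster, number 35, had the highest Loxl3 level of any named cluster outside the mesenchymal-like class. Its 26 wild-type and 40 knockout cells, led by Il12b, Apol7c and Cd70, had 45.1 CPM (24.7 to 75.7, 14 UMIs) and 28.9 CPM (15.4 to 49.5, 13 UMIs). The mesenchymal-like cells stood below these values, at 22.3 and 24.5 CPM, but the intervals overlap in both libraries. The larger dendritic-like cluster 13 had 2.54 and 6.01 CPM. A Loxl3 UMI was present in 38.5% and 22.5% of the cells of cluster 35. Lox, Loxl2 and Loxl4 had no UMI there in either library, with 3-count limits of 9.67 and 6.68 CPM. This cluster, too, was singled out after its values were seen.

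Mesothelial-like cells, which cover the liver surface, were few, 19 wild-type and 9 knockout cells. Loxl1 stood at 170 CPM (123 to 229, 43 UMIs) and 122 CPM (79.1 to 180, 25 UMIs), a log2 ratio of -0.45 (-1.25 to 0.27). These intervals overlap those of Loxl1 in mesenchymal-like cells. Lox had 2 UMIs and none, and Loxl2 had 6 and 4, too few to set beside other classes.

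Cholangiocyte-like cells, the epithelium of the bile ducts, were the class in which Loxl4 differed between the libraries. Loxl4 stood at 1.82 CPM (0.786 to 3.59, 8 UMIs) in 116 wild-type cells and at 5.59 CPM (3.92 to 7.74, 36 UMIs) in 160 knockout cells. The log2 ratio was 1.49 (0.49 to 2.94). A Loxl4 UMI was present in 6.90% of wild-type and 15.6% of knockout cells, at median depths of 19757.5 and 17039 UMIs, while in B-like cells it was present in none and in 0.0555%. Loxl1, the other member with enough UMIs here, had 11 and 27 UMIs and a ratio of 0.67 (-0.31 to 1.90). Loxl4 reached the minimum of 20 UMIs through its knockout count, so that 1 of these 2 members was over 2-fold higher in the knockout (6.94% of 13480 genes) with an interval above 0 (30.4%) is a description only. With a minimum of 1 UMI all 5 members had a ratio above 0, as did 12160 of 20397 genes. Of the 5 members, 3 were at least 2-fold higher, where 12.8% of those genes were. Lox had 1 and 10 UMIs there and Loxl3 2 and 16. The cholangiocyte-like class held 22.2% of all wild-type and 45.6% of all knockout Loxl4 UMIs.

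Other matrix genes differed in the same cells. Of the 11 lysyl oxidase substrates with enough UMIs in cholangiocyte-like cells, 7 were at least 2-fold higher in the knockout, against 6.94% of 13480 genes. None was 2-fold lower, against 1.40%, and the median log2 ratio was 1.92 against 0.12 over all genes. With a minimum of 1 UMI, 8 of 12 substrates were at least 2-fold higher, against 12.8% of 20397 genes. Col1a1, which encodes the main chain of type I collagen, stood at 4.32 CPM (19 UMIs) and 17.1 CPM (110 UMIs), and 5 cells held 48.2% of the knockout UMIs. Cells with UMIs of at least 3 fibrillar collagen genes were 5 of 116 in wild type and 25 of 160 in knockout, at median depths of 128471 and 110561 UMIs, far above the class medians. Without those cells Loxl4 had 7 and 18 UMIs and a log2 ratio of 1.13, with an interval from -0.08 to 2.75 that includes 0. In the whole class the 12 mesenchymal markers summed to 709 and 743 CPM, and the 7 mesothelial markers to 85.6 and 156 CPM, with Upk1b at 0 in both libraries. The 6 cycling markers summed to 193 and 353 CPM, the 6 cholangiocyte markers to 2007 and 1617 CPM, and the 7 hepatocyte markers to 3423 and 2759 CPM, with Cps1 at 0 in wild type. The part of these shifts in the Loxl4 difference was not tested.

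**Figure D4:**
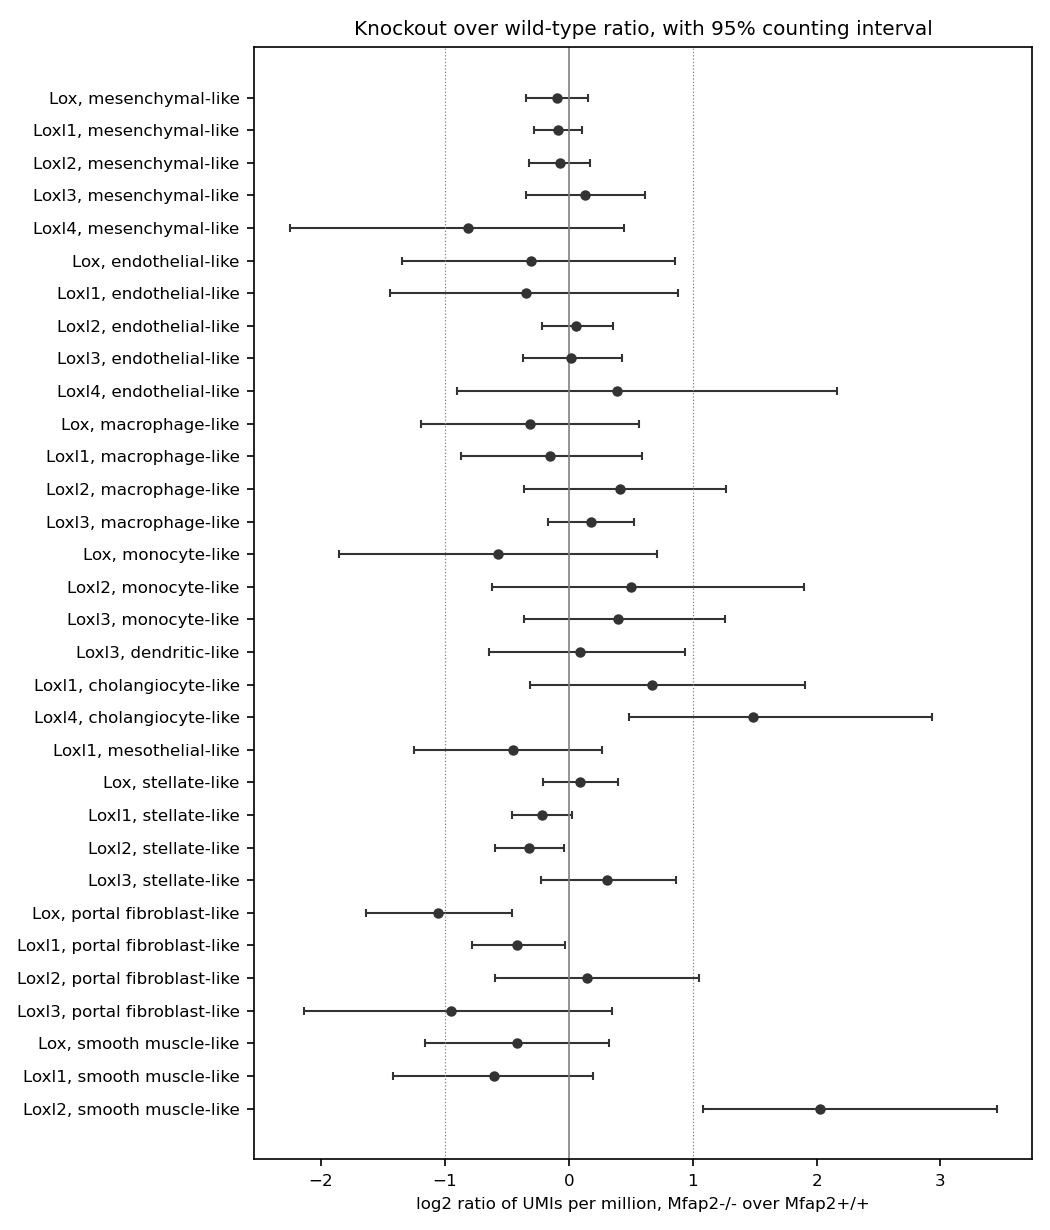
Log2 ratio of knockout over wild type for each member and cell class or mesenchymal-like sub-group with at least 20 UMIs, as points with 95% counting intervals; the solid line marks no difference and the dotted lines a 2-fold difference. All 5 mesenchymal-like intervals cross 0, and the points farthest to the right are Loxl2 in smooth muscle-like cells (2.02) and Loxl4 in cholangiocyte-like cells (1.49).

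The enzymes and partners that lysyl oxidases depend on were read in the mesenchymal-like cells from fixed lists. Of the 12 genes for maturation, copper supply and matrix partners, 10 had enough UMIs, none was 2-fold apart (7.16% of all genes were), 4 ratios were above 0 and 6 below, and the median was -0.17. Over all genes of this class, 7395 of 12444 ratios were above 0 and the median was 0.13. With doublets left in, that median was 0.061, so its sign depended on the processing. Atp7a, the pump that loads copper into secreted cuproenzymes, stood at 56.0 CPM (168 UMIs) in wild type and 103 CPM (360 UMIs) in knockout, a log2 ratio of 0.87 (0.60 to 1.14). Atox1, the chaperone that hands copper to that pump, was lower in the knockout, at 238 and 183 CPM (-0.38, -0.53 to -0.22). Slc31a1, the copper importer, had a ratio of 0.21 (-0.05 to 0.47). Efemp2 (fibulin 4), which tethers Lox to tropoelastin, stood at 122 and 80.0 CPM (-0.61, -0.84 to -0.38), and Fbln5 (fibulin 5), a partner of Loxl1, at 156 and 173 CPM with a ratio of 0.15 (-0.03 to 0.33). Postn and Pcolce had ratios of -0.29 and -0.30 with intervals below 0. Bmp1, the proteinase that cuts the Lox pro-enzyme, stood at 52.7 and 43.3 CPM (-0.28, -0.61 to 0.05). Fn1, the fibronectin scaffold, was at -0.05 with an interval that included 0.

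Among the 14 substrates, 12 had enough UMIs, 10 had a ratio above 0, none was 2-fold apart, and the median was 0.38, beside 0.13 over all genes. Col3a1 stood at 1733 and 2245 CPM (0.37), Col1a1 at 1224 and 1609 CPM (0.39), and Col1a2 at 1363 and 1438 CPM (0.08). Col4a1 and Col4a2, the chains of basement membrane collagen IV, had ratios of 0.44 and 0.57. Col6a1, a chain of beaded-filament collagen VI, was lower, at 498 and 327 CPM (-0.61), and Col6a2 likewise had a ratio of -0.55. Eln, which encodes elastin, stood at 252 and 307 CPM (0.29, 0.15 to 0.42).

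Among 14 measured genes of the other collagen-modifying and folding enzymes, 7 ratios were above and 7 below 0, and the median was -0.03. P4ha1, a prolyl hydroxylase subunit, stood at 214 and 389 CPM (0.86, 0.73 to 1.0). Plod2, the lysyl hydroxylase of collagen telopeptides, stood at 178 and 323 CPM (0.86, 0.71 to 1.01). Ppib, a prolyl isomerase, stood at 409 and 289 CPM (-0.50), and Serpinh1, the collagen chaperone, at 547 and 584 CPM (0.10). In the hypoxia list 2 of 11 genes were at least 2-fold lower in the knockout, against 1.99% of all genes: Adm at 119 and 51.5 CPM (-1.20) and Pgk1 at 68.7 and 30.2 CPM (-1.18). Pfkfb3 of the same list had a ratio of 0.98. Of the 11 hypoxia ratios 4 were above 0 and 7 below, and the median was -0.33, against 0.13 over all genes. Under 9 alternatives that median ran from -0.47 to 0.43, so its sign depended on the processing. Of the 11 TGF-beta response genes none reached a 2-fold difference, and Tgfbi came nearest, at 561 and 281 CPM (-1.0). The 8 dissociation stress genes had a median of 0.08.

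**Figure D5:**
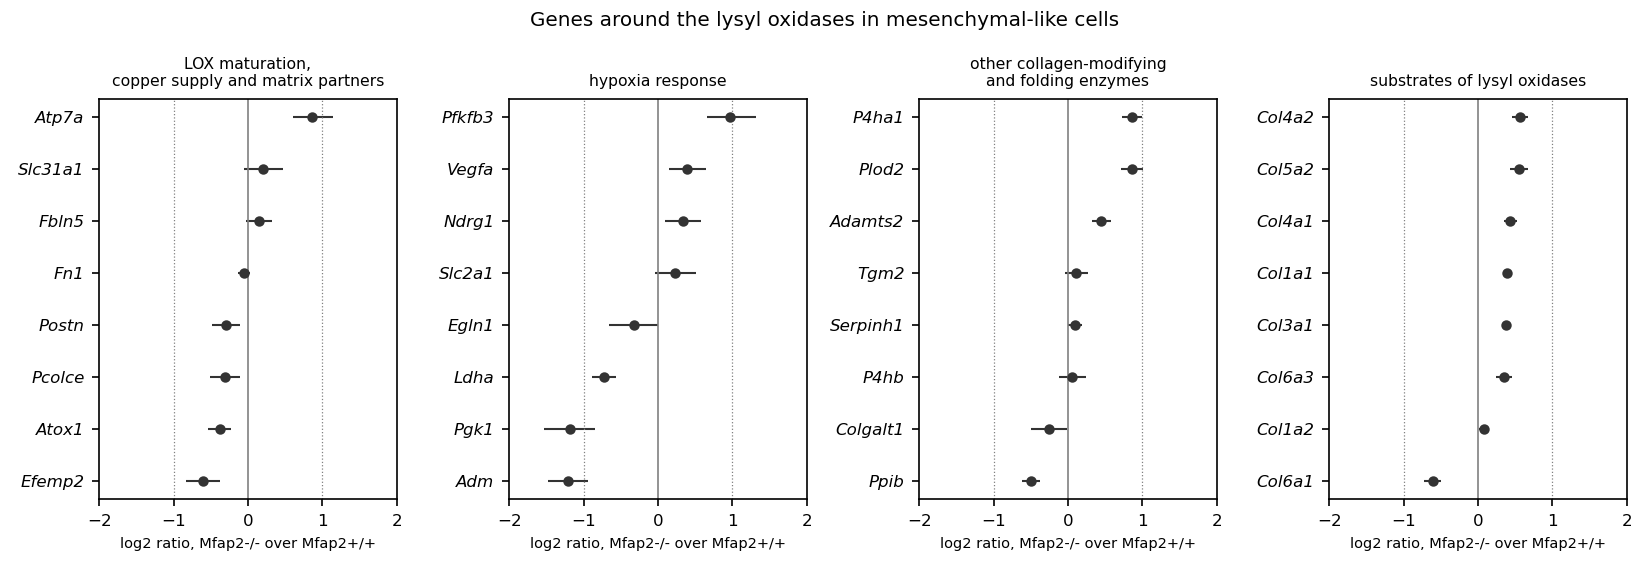
Log2 ratio of knockout over wild type in mesenchymal-like cells for the named genes of 4 lists around the lysyl oxidases, with 95% counting intervals; the solid line marks no difference and the dotted lines a 2-fold difference. Atp7a, P4ha1 and Plod2 lie to the right (0.87, 0.86 and 0.86), and Adm and Pgk1 lie beyond the left dotted line (-1.20 and -1.18).

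Across cell classes the members also differed in which genes they resembled. Likeness was measured as the Pearson correlation of log2(CPM + 1) over 30 points, the 15 classes with at least 20 cells in each library, which share libraries and differ in depth. The mesothelial-like class, with 19 and 9 cells, was left out by this rule. There Loxl1 stood at 170 and 122 CPM, while Lox had 2 UMIs and none. Among the members, Lox and Loxl1 were the closest pair over the classes used (r = 0.91), followed by Lox and Loxl2 (0.84), and Loxl3 and Loxl4 were the least alike (0.44). Of 17170 genes, those closest to Lox were Srpx2, Gabra3, Fbln7, Gdf10 and Gm43091, with r from 0.96 to 0.97. Those closest to Loxl1 were Pcdh11x, Tbx20, Postn, Foxs1 and Nxph1 (0.95 to 0.97). Loxl2 was followed by Slc10a6, Cyp1b1, Snai2, Masp1 and Il33 (0.93 to 0.95). Loxl3 had weaker companions, Procr, Gm3734, Hotairm1, Gask1b and B230217C12Rik (0.82 to 0.89), and Loxl4 had Mettl24, Gm29684, Syt12, Zfp960 and Gm39185 (0.91 to 0.93). With Spearman's rho in place of Pearson's r, between 0 and 3 of the 5 names were shared for each member, so these names depend on the measure.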

How the data were processed

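The authors deposited raw UMI counts per gene and barcode for 1 wild-type and 1 knockout library (Chromium 3′ v3 chemistry, per the labels' protocols). The file headers name Cell Ranger 7.0.1, while the submitters' processing notes name Cell Ranger 3.1.0, Seurat and build mm10. How intronic or antisense reads were counted is not given in the sources used here. The lowest UMI total per barcode was 500.

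Barcodes with under 200 genes or over 20% mitochondrial UMIs were removed (413 wild-type, 149 knockout). So were the cells with the highest simulated-doublet scores, at 0.8% per 1000 cells (1010 and 1271). The score was computed without a log step, a choice made after class sizes were seen. Counts were scaled to 10000 per cell, and 2000 variable genes, without the members, the list genes, Mfap2, mitochondrial, ribosomal and haemoglobin genes, gave 30 components, a graph of 15 neighbours and 38 Leiden clusters at resolution 1 (leidenalg 0.10.2). A cluster took a class name when 3 or more of that class's markers were 2-fold up or more and seen in 10% or more of its cells, and 7 clusters had no name: 2 with fewer than 3 markers, 2 led by genes of another class, and 3 of low depth with no marker among their leading genes. Mesenchymal-like sub-groups came from clustering after each library was centred, at resolutions 0.2 and 0.5, a scheme chosen after clusters and member levels had been seen.

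UMIs were summed per class and library with numpy 2.4.6, scipy 1.17.1 and pandas 2.3.3. Log2 ratios carry 1 added count and need 20 UMIs over both libraries. Intervals are exact Poisson for CPM, Clopper-Pearson for shares and conditional binomial for ratios, all at 95%. They cover counting error only. For a count of 0 a limit of 3 counts is given, which lies below the upper bound of the exact interval. The interval code was tested on simulated Poisson counts, which have no spread between cells.

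Named genes are the members in every class, list genes with at least 50 CPM in mesenchymal-like cells of either library (up to 8 per list), and the 5 genes most like each member, cell type markers left out. Bmp1, Eln, Col6a2, the values of list genes outside mesenchymal-like cells and clusters 32 and 35 were picked after their values were seen. The members and lists were chosen with earlier results of these data known. Alternatives covered cell filters, doublets, clustering, a per-cell marker gate, scaling, thinning, leaving out the richest cells and the UMI minimum. Positions and coding sequences come from GENCODE M21 (GRCm38), which holds 32158 of 32285 gene identifiers. Promoter and protein sequences were not used here.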

Additional observations from a re-analysis of the deposited data

Results flagged for a closer look

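Loxl2 in smooth muscle-like cells (log2 ratio 2.02, 8 and 51 UMIs) and in stellate-like cells (-0.32, 242 and 194 UMIs) stood out because the knockout was higher in the first sub-group and lower in the second, each with a counting interval on 1 side of 0. The difference between the sub-groups was not tested, since each genotype has 1 library, and smooth muscle-like cells numbered 19 and 22. Loxl2 reached the minimum UMI number in the smooth muscle-like cells through its knockout count. In the smooth muscle-like cells the smooth muscle markers summed to 8062 and 3896 CPM, the stellate markers to 1214 and 1867 CPM and the mesenchymal markers to 6340 and 9406 CPM, and their part was not tested. After thinning to 1000 UMIs per cell the stellate-like ratio stood at 0.54, on 9 and 12 UMIs.

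Members also appeared in clusters left without a class name, which are outside the comparisons by class, above the intervals of B-like cells of the same library. Cluster 31, whose cells had medians of 990.5 and 859 UMIs and whose closest class is mesenchymal, had 44.2 CPM of Lox in wild type on 7 UMIs, and 88.4 and 66.0 CPM of Loxl1 on 14 and 4 UMIs. Loxl3 stood at 19.2 CPM (5 UMIs) in cluster 11 and at 17.0 CPM (6 UMIs) in cluster 18 of the wild-type library, both with macrophage as the closest class, against 6.65 and 3.54 CPM in the knockout library on 3 UMIs and 1 UMI.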

How the results depend on the processing

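Of 218 log2 ratios recomputed under the alternatives, 204 moved by less than their counting interval, and no cause of the others was tested. With doublets left in, Loxl1 in mesenchymal-like cells stood at 0.32 and the medians of the maturation and substrate lists at 0.061 and 0.49. With a marker gate per cell, Lox stood at 0.20, Loxl1 at 0.15 and the maturation list at -0.027. With each cell thinned to 1000 UMIs, Loxl1 stood at 0.28 and Loxl2 at 0.79 in mesenchymal-like cells, Loxl2 at 0.44 in endothelial-like cells and Loxl3 at 0.77 in macrophage-like cells, on few UMIs. Median-of-ratios scaling gave -0.31 for the maturation list and 0.25 for the substrates, and the mean of per-cell CPM gave 0.53 for the substrates. With stellate-like cells alone, an alternative added after seeing the data, Loxl2 stood at -0.32. Loxl1 in macrophage-like cells stood at -1.29 with clusters weighted to the wild-type mix, also added, and Loxl2 in cycling-like cells at 1.33 under a stricter cell filter and 1.16 at resolution 2, in place of -0.57. With a minimum of 1 UMI, 2057 genes were at least 2-fold higher and 1740 lower in the knockout, against 643 and 248, and the maturation list stood at -0.28. Without the 5 richest cells, Lox and Loxl1 in portal fibroblast-like cells turned to 0.75 and 0.46, and Loxl2 in thinned stellate-like cells turned to 0.54. Loxl4 in cholangiocyte-like cells ranged from 1.0 to 1.94. Settings that left under 20 UMIs gave no value. No paired analysis was possible because each genotype has 1 library. Levels and shares within the intervals of B-like cells cannot be told apart from background at this depth.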
